A study of Homo sapiens with 3 samples.

Results

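Keratins are the intermediate filament proteins of epithelial cells. The 48 keratin genes described here are those whose symbol in the platform annotation is KRT followed by a number with an optional letter, leaving out keratin-associated proteins and pseudogenes, with at least 1 probe set listed for that gene alone. They are 48 of 18239 genes so measured in the series, and 20 of them are among the 12779 genes above the filter on dim signal. The filter kept genes whose mean log2 value over the 3 libraries reached 3.93, the 30th percentile of all genes. All 20 keratins also passed it on the siNT value alone. RefSeq lists 55 protein-coding keratin genes of this name pattern; KRT6A, KRT6B, KRT16, KRT17, KRT81, KRT82 and KRT86 have no probe set listed for them alone in the annotation used here and were not analysed.

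A keratin filament is built from pairs of 1 type I (acidic) and 1 type II (basic) chain, so the genes are usually expressed as partners: KRT8 with KRT18 in simple epithelia, KRT5 with KRT14 in the basal layer of stratified epithelia, KRT1 with KRT10 above it, and KRT4 with KRT13 in the upper layers of oral mucosa. Plakins such as plectin and desmoplakin tie the filaments to hemidesmosomes and desmosomes. Tongue epithelium is stratified, and squamous carcinoma cells commonly express simple epithelial keratins beside those of the basal layer.

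The samples are GFP-SAS cells, as the labels call them; SAS is a cell line established from a carcinoma of the human tongue. They received an siRNA, a short duplex RNA that directs cleavage of matching mRNA, at 10 nM for 24 h: siAkt1-22 or siAkt1-58, a pair of siRNAs against AKT1 with 1 library each, or the non-targeting siNT with 1 library. The question was how expression differed after knockdown of the kinase AKT1. Unless stated otherwise, values are log2 expression values per gene, and differences are siAkt1-22 or siAkt1-58 minus siNT on the log2 scale. The labels do not say whether the libraries came from separate cultures, and every SD is taken over the siAkt1 libraries, so it holds whatever differs between the siRNA sequences as well as technical spread.

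AKT1 read 3.67 with siAkt1-22 and 3.47 with siAkt1-58, against 6.75 with siNT. Counting genes in which 1 library was 2-fold or more above or below both of the others gave 680 for siAkt1-22, 256 for siAkt1-58 and 244 for siNT. The 24 probe sets for spiked poly-A controls had median differences of -0.56 with siAkt1-22 and -0.01 with siAkt1-58; the part of this in any keratin difference was not tested. The labels do not call the cells epithelial. Of 8 listed squamous epithelial markers, 5 were analysed: CDH1, EPCAM, DSP, ITGB4 and SFN. These 5 ran from 7.68 to 11.7 over both siAkt1 libraries and from 8.06 to 11.4 in siNT. The 7 fibroblast markers did not exceed 4.33 in any library. The 5 leukocyte markers analysed did not exceed 4.45 in siAkt1-22, with ITGAM the highest, or 3.56 in siAkt1-58 and siNT. The 4 endothelial markers had a maximum of 4.50 in each library. Fewer cells of a kind and less RNA per cell cannot be told apart in RNA from a whole culture.

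Promoter windows from RefSeq (GRCh38.p14, 250 bases before to 50 after the start of transcription) matched 33 of the 48 keratin genes. Those of KRT5, KRT8, KRT9 and KRT10 are shown because these genes differed between the libraries in different ways and have an entry; KRT15, KRT18, KRT19 and KRT80 have none. The windows lie on the minus strand at chr12:52520345-52520644 (KRT5), chr12:52926420-52926719 (KRT8), chr17:41572010-41572309 (KRT9) and chr17:40822565-40822864 (KRT10). Capitals mark matches on either strand to the TATA box letters TATAAA, the AP-1 letters TGANTCA, the AP-2 letters GCCNNNGGC, the Sp1 letters GGGCGG and the CACCC box letters CACCC, where adjoining matches run together.
KRT5: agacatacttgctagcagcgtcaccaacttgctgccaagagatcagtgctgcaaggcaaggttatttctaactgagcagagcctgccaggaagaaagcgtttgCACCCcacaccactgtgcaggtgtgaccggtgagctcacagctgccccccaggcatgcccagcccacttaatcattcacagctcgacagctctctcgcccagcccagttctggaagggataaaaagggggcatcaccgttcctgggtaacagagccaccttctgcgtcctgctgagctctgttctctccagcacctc
KRT8: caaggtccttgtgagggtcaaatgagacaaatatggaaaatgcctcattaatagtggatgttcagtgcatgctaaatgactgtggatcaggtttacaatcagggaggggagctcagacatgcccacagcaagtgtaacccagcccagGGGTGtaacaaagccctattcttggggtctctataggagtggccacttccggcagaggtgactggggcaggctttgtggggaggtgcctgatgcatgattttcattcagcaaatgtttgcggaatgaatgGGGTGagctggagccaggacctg
KRT9: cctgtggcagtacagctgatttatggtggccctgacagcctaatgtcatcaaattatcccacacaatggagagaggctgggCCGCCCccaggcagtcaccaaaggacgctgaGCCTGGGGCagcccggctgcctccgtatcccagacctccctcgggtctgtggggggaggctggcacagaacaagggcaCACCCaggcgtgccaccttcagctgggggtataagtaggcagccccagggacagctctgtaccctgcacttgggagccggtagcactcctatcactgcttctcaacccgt
KRT10: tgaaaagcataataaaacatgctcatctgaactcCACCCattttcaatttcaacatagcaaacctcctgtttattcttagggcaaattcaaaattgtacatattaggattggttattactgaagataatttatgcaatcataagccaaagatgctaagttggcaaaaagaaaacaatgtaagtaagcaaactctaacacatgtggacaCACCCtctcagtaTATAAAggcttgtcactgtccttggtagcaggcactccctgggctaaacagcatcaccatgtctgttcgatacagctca

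The 33 keratin genes had 37 windows. A TATAAA match was present in 20 of these 37, against 11.5% of all 35116 windows. In KRT10 it began 29 bases before the start, and the windows of KRT5, KRT8 and KRT9 held none. The AP-2 letters were in 5 of the 37 keratin windows (23.2% of all windows) and the Sp1 letters in 6 (45% of all windows). The CACCC letters were in 28 of the 37 (59.9% of all windows). KRT9 held 1 match each to the AP-2, Sp1 and CACCC letters, and KRT5 held 1 CACCC match. No keratin window held TGANTCA, which 7.71% of all windows hold. These are matches of letters and not measured binding sites.

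No keratin was 2-fold or more above siNT with both siRNAs, and none was 2-fold or more below it (0 of 20 each way, against 0.736% and 1.17% of all genes above the filter). With siAkt1-22 alone 1 keratin, KRT9, was at least 2-fold higher (4.4% of all genes) and 1, KRT80, at least 2-fold lower (5.97% of all genes). With siAkt1-58 alone no keratin passed 2-fold in either direction (1.54% and 3.58% of all genes). KRT9 and KRT80 stood on the same sides of siNT with siAkt1-58, at 0.21 and -0.19. KRT5, KRT15 and KRT19 were lower with siAkt1-22 and higher with siAkt1-58, and KRT8 was the other way round. KRT7 and KRT6C stayed within 0.08 of siNT with both.

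**Figure D1:**
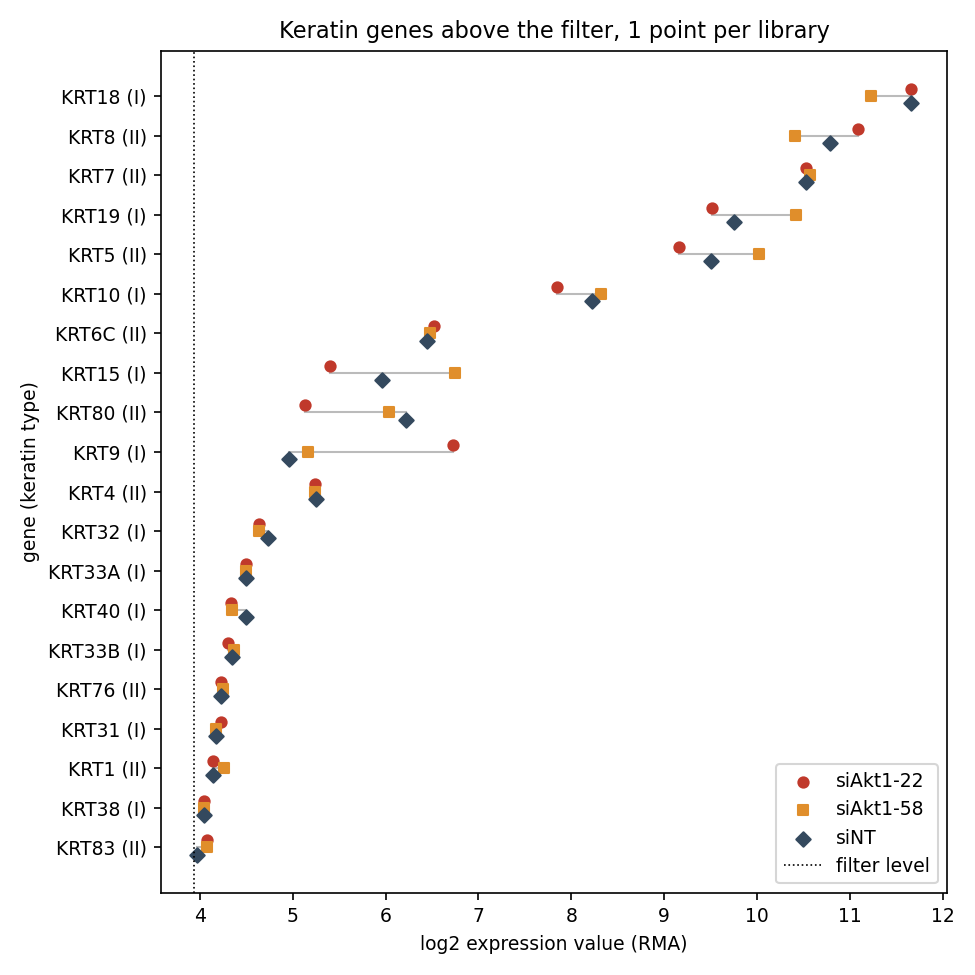
Log2 expression values (x axis) of the 20 keratin genes above the filter (rows, with keratin type), 1 point per library, with a grey line over the range of the 3 libraries and the filter level of 3.93 dotted. KRT15, KRT19 and KRT5 have siNT between the siAkt1 libraries, KRT9 has siAkt1-22 far to the right of both others, and the lower rows overlap almost completely.

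Among the keratins of simple epithelia, KRT18 read 11.66 with siAkt1-22 and 11.23 with siAkt1-58, against 11.66 with siNT. The difference with siAkt1-58 was -0.43, and siAkt1-22 lay at the siNT level. Its type II partner KRT8 read 11.09 with siAkt1-22 and 10.41 with siAkt1-58, against 10.79 with siNT. The KRT8 differences were 0.30 and -0.38, a mean of -0.04 ± 0.48 (SD, n = 2), so siNT lay between the siAkt1 libraries. All 8 KRT8 probe sets had this order, with differences from 0.30 to 0.45 with siAkt1-22 and from -0.43 to -0.35 with siAkt1-58. The other KRT18 probe set was 0.01 and -0.45. Probe sets of 1 gene in 1 library are not replicates, and all of those for KRT8 and KRT18 are of the _x_at kind, whose probes can match other sequences; RefSeq lists 52 KRT8 and 68 KRT18 pseudogenes. Both partners were thus lower with siAkt1-58 by similar amounts, and they parted with siAkt1-22.

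KRT7, a type II keratin of glandular and ductal epithelia, read 10.53 with siAkt1-22 and 10.57 with siAkt1-58, against 10.53 with siNT. It did not separate the libraries. KRT19, the short type I keratin without a tail domain, read 9.51 with siAkt1-22 and 10.42 with siAkt1-58, against 9.76 with siNT. Its differences of -0.24 and 0.67 averaged 0.21 ± 0.64 (SD, n = 2), and siAkt1-58 was 1.88-fold above siAkt1-22. KRT20, a type I keratin of intestinal epithelium, and KRT23 lay below the filter in all 3 libraries, at 3.66 and 3.43 or lower.

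Of the basal layer keratins, KRT5 read 9.16 with siAkt1-22 and 10.03 with siAkt1-58, against 9.51 with siNT. Its differences were -0.35 and 0.52, with a mean of 0.09 ± 0.61 (SD, n = 2). The other KRT5 probe set gave -0.41 and 0.60, the same order at a similar size. KRT15, a type I keratin of basal cells, read 5.40 with siAkt1-22 and 6.75 with siAkt1-58, against 5.96 with siNT. Its differences were -0.56 and 0.79, and the libraries of the siRNAs lay 2.55-fold apart on either side of siNT. KRT14, the usual type I partner of KRT5, read 3.67 with siAkt1-22, 3.67 with siAkt1-58 and 3.66 with siNT, below the filter, from a single _x_at probe set. At that level no difference could be read for KRT14.

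**Figure D2:**
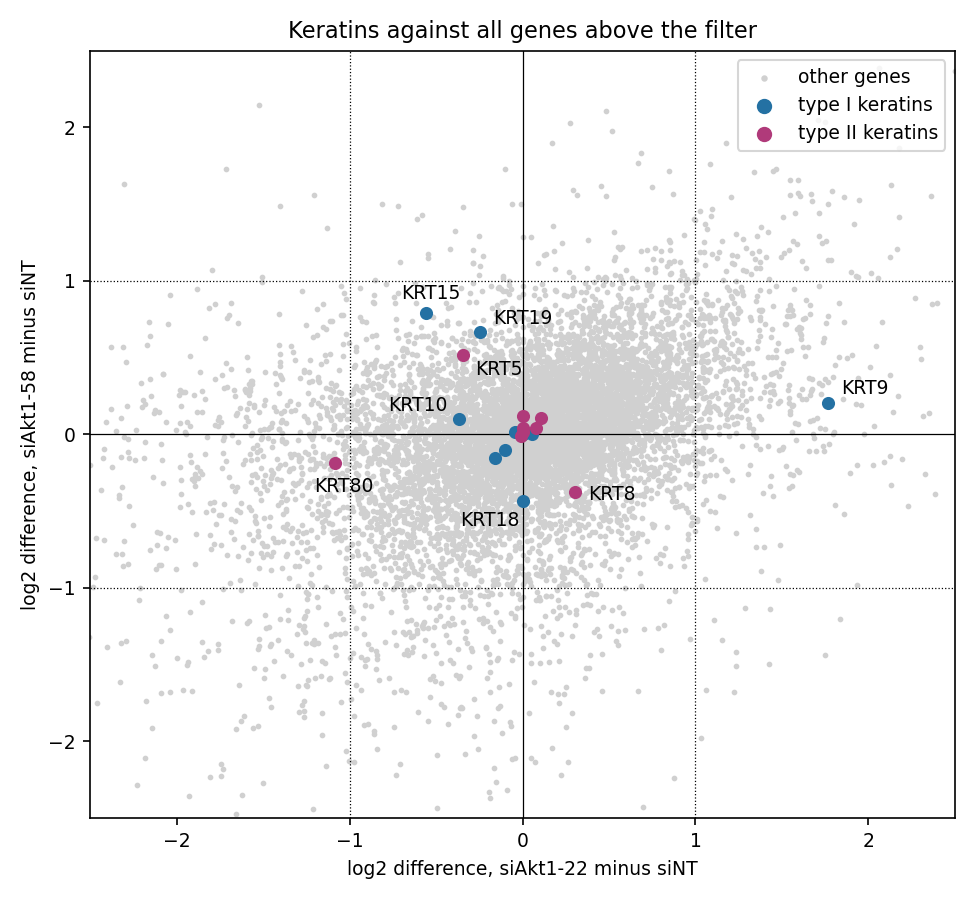
Log2 difference of siAkt1-22 from siNT (x axis) against that of siAkt1-58 from siNT (y axis) for genes above the filter, with type I and type II keratins coloured and dotted lines at 2-fold; axes end at 2.5, which leaves out 85 genes and no keratin. Both differences contain the same siNT library. KRT5, KRT15 and KRT19 lie in the upper left, KRT8 lies in the lower right, and no keratin lies beyond 2-fold on both axes.

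Among suprabasal and specialised keratins, KRT9, KRT80 and KRT10 each had the larger difference with siAkt1-22. KRT9, a type I keratin known from the epidermis of palms and soles, read 6.72 with siAkt1-22 and 5.16 with siAkt1-58, against 4.96 with siNT. It stood 3.41-fold above siNT with siAkt1-22 and 1.15-fold above it with siAkt1-58. The mean log2 difference was 0.99 ± 1.10 (SD, n = 2). The siAkt1-22 library alone carried this difference. A dimmer KRT9 probe set read 5.84 with siAkt1-22 and 3.65 with siAkt1-58, against 3.59 with siNT, so its differences were 2.26 and 0.06. Leaving out siAkt1-22 leaves KRT9 at 0.21.

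KRT80, a type II keratin of differentiating epithelium, read 5.14 with siAkt1-22 and 6.04 with siAkt1-58, against 6.22 with siNT. It stood 2.12-fold below siNT with siAkt1-22 and 1.14-fold below it with siAkt1-58. Both libraries were below siNT, and the value without siAkt1-22 is -0.19. KRT10, the suprabasal type I keratin, read 7.85 with siAkt1-22 and 8.32 with siAkt1-58, against 8.22 with siNT. Its partner KRT1 read 4.14 with siAkt1-22 and 4.26 with siAkt1-58, against 4.14 with siNT. Both were above siNT with siAkt1-58, by 0.10 and 0.12, while with siAkt1-22 KRT10 was at -0.37 and KRT1 at 0. KRT1 lay near the filter, where differences are understated and equal values do not show an unchanged transcript.

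Of the oral mucosa keratins, KRT4 differed little between libraries, and KRT13 and KRT76 were dim. KRT4 read 5.24 with siAkt1-22, 5.24 with siAkt1-58 and 5.25 with siNT. Its partner KRT13 read 3.42 in every library, below the filter, so no difference could be read for it. KRT76, a keratin of the palate and gum, read 4.23 with siAkt1-22 and 4.25 with siAkt1-58, against 4.23 with siNT. KRT76 thus lay near the filter, where equal values do not show an unchanged transcript. KRT6C, of the wound-induced KRT6 group, read 6.52 with siAkt1-22 and 6.48 with siAkt1-58, against 6.45 with siNT. The dimmer KRT6C probe set gave -0.06 and 0. The KRT6 genes are nearly identical in sequence, so its signal may include KRT6A and KRT6B.

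Of 23 hair and inner root sheath keratins measured, 7 lay above the filter: KRT31, KRT32, KRT33A, KRT33B, KRT38, KRT40 and KRT83. Their values ran from 3.97 to 4.74, and none differed from siNT by more than 0.16 with either siRNA. KRT33A and KRT38 had equal values in all 3 libraries (within 1e-06), which 11.1% of all genes above the filter also had. KRT83 was the dimmest keratin kept, at 4.08, 4.08 and 3.97 in siAkt1-22, siAkt1-58 and siNT, and KRT84 the first one left out, at 3.82, 3.82 and 3.98. The 28 keratins below the filter, 16 of them hair and root sheath genes, ran from 2.54 to 3.98, with differences from -0.21 to 0.07. For 11 of these the values were equal in all 3 libraries. Equal values at this level do not show an unchanged transcript.

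**Figure D3:**
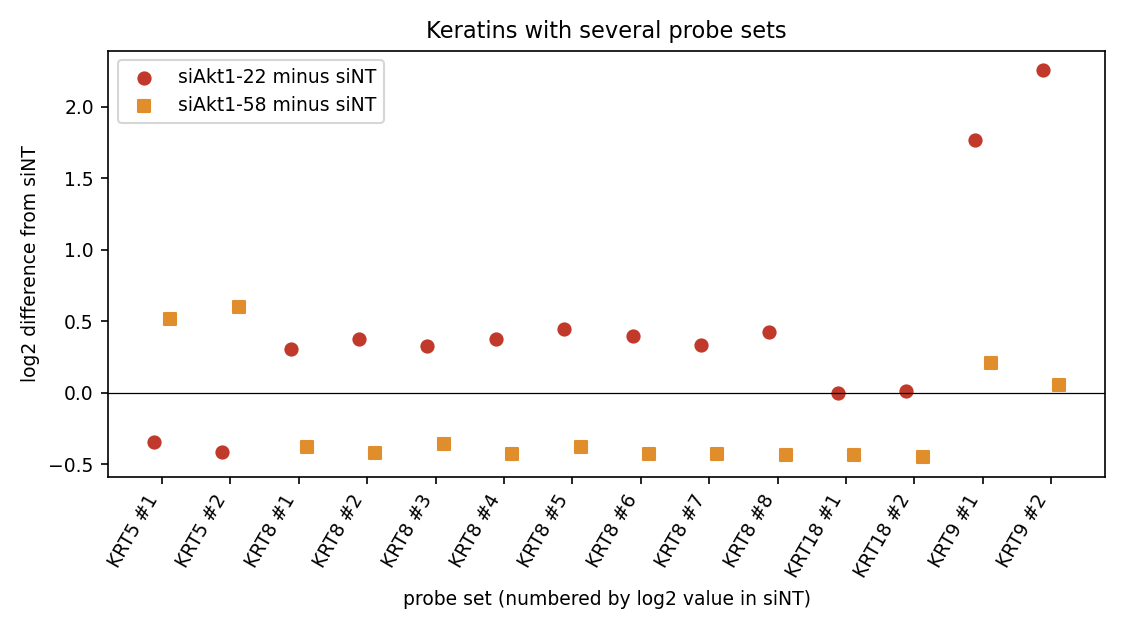
Log2 differences from siNT (y axis) of every probe set of KRT5, KRT8, KRT18 and KRT9 (x axis), with circles for siAkt1-22 and squares for siAkt1-58. The 2 KRT5 sets have siAkt1-58 above 0 and siAkt1-22 below it, the 8 KRT8 sets have the opposite order, and the KRT9 sets reach 1.77 and 2.26 with siAkt1-22.

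Limma's moderated test, siAkt1 against siNT and adjusted by Benjamini-Hochberg over all 12779 genes, passed 0 keratins and 0 genes (0% of all genes). The lowest adjusted p was 0.607 over all genes and 0.617 among keratins. At an unadjusted p under 0.05 there were 954 genes (7.47%) and 1 keratin, KRT40, whose limma p was 0.0336 for differences of -0.16 and -0.15. The other KRT40 probe set, at 2.91 with siNT, gave 0 and 0.08. The test has 1 siNT library and 1 residual degree of freedom, and these counts do not show that keratins kept their level. The median difference over the 20 keratins was 0 with siAkt1-22 and 0.02 with siAkt1-58, against 0 and 0 over all genes above the filter. Under a limit chosen after the values were seen, 12 of the 20 keratins (60%) had a range under 1.2-fold over the 3 libraries, against 39.4% of all genes above the filter. These 12 include KRT1, KRT76 and all 7 hair and root sheath keratins kept, which lie near the filter, where differences are understated. The 8 keratins with a larger range were KRT5, KRT8, KRT9, KRT10, KRT15, KRT18, KRT19 and KRT80.

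Set against each other, the siRNAs left 6 of 20 keratins at least 1.5-fold apart (30%, against 22.9% of all genes) and 2 at least 2-fold apart (10%, against 10.3% of all genes). KRT9 was 2.95-fold higher with siAkt1-22 than with siAkt1-58 (5% of all genes passed 2-fold in that direction) and KRT15 was 2.55-fold lower (5.28% of all genes passed it downwards). These shares are close to those over all genes. The other 4 were KRT19 (1.88-fold lower with siAkt1-22), KRT80 (1.86-fold lower), KRT5 (1.82-fold lower) and KRT8 (1.60-fold higher). With 1 library each, the difference between the siRNAs could not be tested.

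KRT5, KRT10, KRT15, KRT19 and KRT33B were lower than siNT with siAkt1-22 and higher with siAkt1-58, which is 5 of 20 against 12.1% of all genes. Only KRT8 had the reverse signs, 1 of 20 against 13.5% of all genes. KRT33B belongs to the first set by no more than 0.04 on either side. The median size of the difference between the siRNAs was 0.06 over the 20 keratins and 0.22 over all genes above the filter. The keratin median includes 7 hair and root sheath genes that read from 3.97 to 4.74, near the filter, where differences are understated. It does not show that the brighter keratins differed less than other genes.

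Keratin genes lie in a type II cluster on chromosome 12, which also holds the type I gene KRT18, and a type I cluster on chromosome 17. KRT15 and KRT19 are next to each other in the map order of measured keratins and had the same signs, but the following gene, KRT9, had siAkt1-22 on the other side of siNT. KRT8 and KRT18 are also neighbours and both were lower with siAkt1-58. In the map order of measured keratins, KRT5 lies between KRT6C and KRT71, neither of which differed from siNT by more than 0.08. KRT71 lay below the filter, at 3.37 or lower, so no difference could be read for it. Keratins without a probe set of their own, such as KRT6A and KRT6B, have no place in this order.

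**Figure D4:**
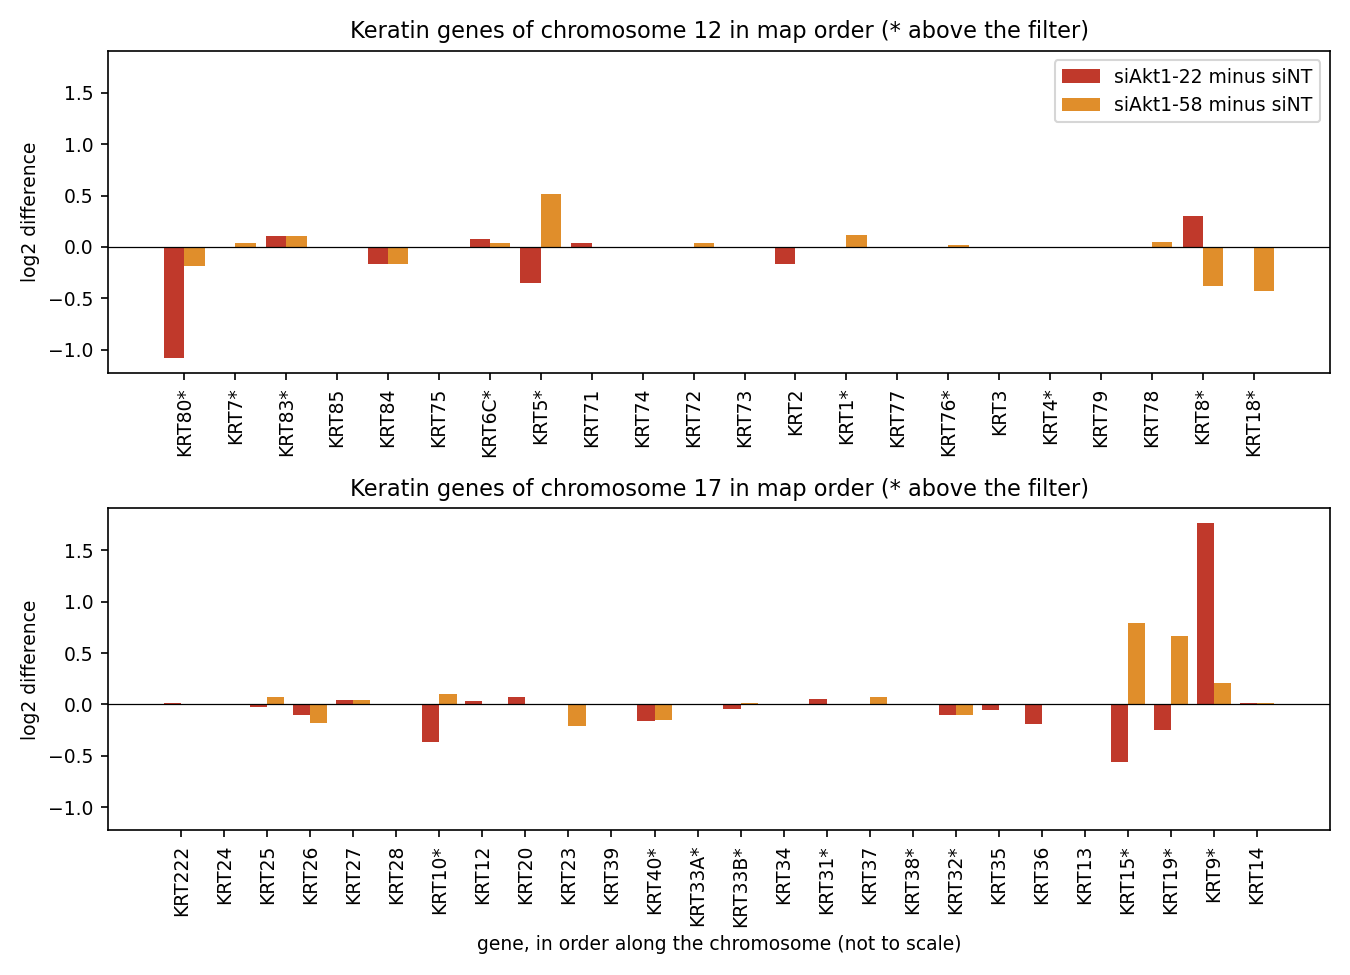
Log2 differences from siNT (y axis) of the 48 measured keratins in their order along chromosomes 12 and 17 (x axis, not to scale), with bars for siAkt1-22 and siAkt1-58 and a star on genes above the filter. The tallest bars stand at KRT80, KRT5, KRT8 with its neighbour KRT18, KRT10, and the run of KRT15, KRT19 and KRT9. The largest difference among the other genes is that of KRT23, at -0.21 with siAkt1-58.

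By the smallest summed distance of both differences over the 3 libraries, the genes most like KRT18, the keratin with the highest log2 value, were DLGAP5 (0.00 and -0.43), ANGEL2 (0.01 and -0.43) and IMPDH2 (-0.01 and -0.43).

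Genes that anchor keratin filaments were measured beside them. Of 10 linker and hemidesmosome genes above the filter, 2 were higher than siNT with both siRNAs and 0 lower with both. Over all 12779 genes above the filter these counts were 3945 and 2739. Of the 10, 5 were lower with siAkt1-22 and higher with siAkt1-58 (12.1% of all genes), and 3 had the reverse signs (13.5% of all genes). These 8 were named after their values were seen. ITGA6, the laminin-binding integrin chain of hemidesmosomes, read 8.37 with siAkt1-22 and 11.14 with siAkt1-58, against 10.42 with siNT. Its partner ITGB4 differed by -0.38 and 0.29, the plakin PLEC by -0.65 and 0.34, DST by -0.59 and 0.70, and the tetraspanin CD151 by -0.31 and 0.03. On the reverse side were the plakin-family gene EPPK1 at 0.90 and -0.47, the laminin chain LAMB3 at 0.58 and -0.24 and EVPL at 0.54 and -0.06. PPL, a plakin of desmosomes and the cornified envelope, was 1.26 and 0.80, and the desmosomal plakin DSP 0.37 and 0.73. The list's medians were 0.03 and 0.32, against 0 and 0 over all genes, and 0 members passed limma. COL17A1 and LAMA3 were not analysed here.

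Of 11 other intermediate filament genes above the filter, 2 were higher and 3 lower than siNT with both siRNAs. Over all 12779 genes above the filter 3945 were higher and 2739 lower. Of the 3 lower, 1 was at least 2-fold lower with both (1.17% of all genes), and the list's medians were 0 and -0.02. VIM, the mesenchymal filament protein, read 9.11 with siAkt1-22 and 10.11 with siAkt1-58, against 10.34 with siNT. LMNB1, a nuclear lamin, differed by -1.15 and -3.57, and NES by -0.47 and -0.11, whereas LMNA (0.77 and 0.55) and LMNB2 (0.62 and 0.45) were higher with both. NEFL, a neurofilament gene named after its values were seen, differed by -1.21 with siAkt1-22 and 1.56 with siAkt1-58, on both sides of siNT as KRT15 did.

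Genes of terminal differentiation were mostly dim. Of 20 cornified envelope and differentiation genes, 7 lay above the filter. Of these 7, 3 were higher than siNT with both siRNAs and 0 lower, against 3945 and 2739 of all 12779 genes. The 3 were KLK7 (0.86 and 0.40), CSTA (0.40 and 0.26) and CNFN (0.31 and 0.18). Medians over the 7 were 0.08 and 0.18. IVL, LORICRIN and FLG, which encode envelope and filament-bundling proteins, did not exceed 3.76 in any library.

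Among 21 epithelial transcription factors above the filter, 8 were higher and 3 lower than siNT with both siRNAs, and 0 passed limma; medians were 0.24 and 0.06. ZNF750, a differentiation factor, was 0.85 and 1.72, EHF 0.33 and 0.84, GRHL3 0.30 and 0.94 and ELF3 1.16 and 0.28. NOTCH1 was -0.41 and -0.07 and SP1 -0.25 and -0.05. None of these passed 2-fold with both siRNAs. Of 14 genes for proteins that bind or modify keratins, 9 were higher and 3 lower with both, with medians of 0.16 and 0.10. TRADD, a death-domain adaptor that binds KRT18 and KRT14, was 0.80 and 0.58, TRIM29 0.55 and 0.55, PKP3 0.49 and 0.71 and FAM83H, which recruits casein kinase to keratin filaments, 0.09 and 0.57. CSNK1A1, that kinase, was -2.01 and -0.69, and TCHP, a keratin-binding protein, -0.11 and -0.92. Over all 12779 genes above the filter 3945 were higher and 2739 lower than siNT with both.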

How the data were processed

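Total RNA (10 ng) was labelled with biotin by a 3' in vitro transcription kit for Affymetrix arrays, per the labels' protocols. The authors deposited 1 log2 value per probe set and library, made by RMA per the submitters' processing notes, which give no version or settings; the scanner software is not given in the sources used here. The log2 scale was read from the values, and the column medians were 4.59, 4.58 and 4.59 for siAkt1-22, siAkt1-58 and siNT. Some values are exactly equal between libraries, at bright levels too. The number of arrays limits precision.

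Of 49386 probe sets, 45253 carried 1 gene; symbols were updated through Entrez identifiers in RefSeq. Sets with several genes (1327), sets the annotation does not list (2713) and 93 controls were not used for genes. Each gene was read from its brightest probe set by mean log2 value. Counts used a log2 difference of 1 in each siAkt1 library. Limma 3.58.1 in R 4.3.3 (lmFit, eBayes, two-sided, Benjamini-Hochberg) compared the siAkt1 libraries, which share a genotype label, with siNT, assumed to vary like them (1 residual and 0.467 prior degrees of freedom). The code was tested on simulated data. Every keratin above the filter was named with the first one below it; from other lists, up to 4 leading members on the larger side of siNT and up to 2 on the other. Genes that break this rule are marked. The members and gene lists were chosen with earlier results of these data known. Alternatives were averaged or plain _at probe sets, centring, quantile normalization, other filters, 1.5-fold, trend eBayes and each siAkt1 library left out.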

Additional observations from a re-analysis of the deposited data

Results flagged for a closer look

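KRT10-AS1, an antisense RNA that overlaps KRT10 on the opposite strand in RefSeq and is no member of the keratin set, stood more than 2-fold from siNT with siAkt1-22. Its log2 value was 8.29 with siAkt1-22 and 7.55 with siAkt1-58, against 7.02 with siNT, which gives differences of 1.27 and 0.53. A dimmer KRT10-AS1 probe set was 0.30 and 0.15. KRT10 itself was -0.37 and 0.10 in the same libraries. The mean difference of 0.90 ± 0.52 (SD, n = 2) did not pass limma (adjusted p = 0.933 over all genes).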

How the results depend on the processing

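The count of keratins at least 2-fold higher, or lower, than siNT with both siRNAs was 0 under averaged probe sets, plain _at probe sets, median centring, quantile normalization, no filter, a filter at the 50th percentile and a 1.5-fold limit. Leaving out 1 siAkt1 library gave 0 to 1 higher and 0 to 1 lower; the single calls, KRT9 and KRT80, came without siAkt1-58, and such a pair of libraries has no test. Limma passed 0 keratins under every alternative run, with 0 to 5 at an unadjusted p under 0.05. The count at least 2-fold apart between the siRNAs was 2, but 1 with plain _at probe sets and 6 at 1.5-fold. Of the keratins above the filter, KRT4, KRT5, KRT7, KRT8, KRT10, KRT15, KRT18, KRT19, KRT80 and KRT83 have no plain _at probe set. The median keratin difference with siAkt1-58 was 0.017 as reported, 0 with plain _at probe sets, 0 with no filter and 0.042 with the stricter filter; with siAkt1-22 it was 0 as reported and -0.012 with quantile normalization. Centring and quantile normalization moved no single keratin by more than 0.043. With averaged probe sets KRT9 was 2.01 and 0.13, KRT8 0.37 and -0.40 and KRT5 -0.38 and 0.56. KRT9, KRT15 and KRT80, which passed 2-fold in some comparison, kept their signs in every setting where they could be recomputed. KRT40, the keratin with an unadjusted p under 0.05, did not. It went from -0.16 and -0.15 to 0 and 0.08 with plain _at probe sets. No paired analysis was possible because siAkt1 and siNT share fewer than 2 replicate numbers. With 1 siNT library, no difference separates a deviation of siNT from an effect of the siRNAs, and values near the filter understate differences.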

Other observations

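Probe sets listed for KRT16 together with 3 of its pseudogenes were left out of the comparisons by gene, since they name no single gene. Of these 3 probe sets, 1 read 3.75 with siAkt1-22 and 2.75 with siAkt1-58, against 2.88 with siNT. The others differed from siNT by 0.09 and 0, and by 0.03 and 0. In the probe sets of the pseudogene KRT17P5 no difference passed 0.13 with either siRNA. KRT18P55, a KRT18 pseudogene, was 0.03 and -0.13.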
